A study of Mus musculus with 4 samples.

Results

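A set of 10 genes near Lrrc8a on mouse chromosome 2 was followed in testis RNA from mice mutant for Lrrc8a and from wild-type mice. They are Set, Endog, Ccbl1, Phyhd1, Dolk, Nup188, Sh3glb2, Dolpp1, Ier5l and Fibcd1, which is 10 of the 24420 gene symbols in the deposited table. They were chosen by position, within 2 Mb of Lrrc8a, with their levels in mutant and wild-type libraries already known. The mutant against wild-type difference of these genes is therefore given as a description without a test. All 10 symbols were found in the table, and all passed the filter on low values. It asked for at least 1 CPM (counts of reads scaled to an adjusted library size) in 2 or more libraries. Fibcd1 passed through its wild-type libraries alone, being under 1 CPM in both mutant libraries, so a difference was built into its inclusion.

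The study compared freshly isolated testis of Lrrc8a mutant (MUT) and wild-type (WT) FVB mice, with 2 libraries for each genotype. Lrrc8a encodes an obligate subunit of the volume-regulated anion channel, and the series is about deficient activity of that channel and male infertility. The sources used here do not give the kind of allele, the age of the mice, or whether same-genotype libraries came from different animals. The p-values below therefore cover only how far these libraries spread, and that spread may be technical. The libraries held 40426400 to 68192776 reads assigned to genes.

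Neighbouring genes are of interest in a mutant because a chromosome segment is inherited with the altered gene, and because regulatory DNA can serve more than one gene. These 10 genes share an address but not a pathway. Dolk and Dolpp1 act on dolichol, the lipid that carries the sugar chain for N-glycosylation at the endoplasmic reticulum. Dolk phosphorylates dolichol, and Dolpp1 turns dolichyl diphosphate back into the monophosphate for another round. Nup188 is a scaffold nucleoporin of the nuclear pore. Set is a histone chaperone and an inhibitor of protein phosphatase 2A. Ccbl1, now named Kyat1, is a kynurenine aminotransferase and cysteine conjugate beta-lyase, Endog is a nuclease of the mitochondrial intermembrane space, Phyhd1 is an iron-dependent oxygenase related to phytanoyl-CoA hydroxylase, Sh3glb2 is the membrane-bending protein endophilin B2, and Fibcd1 is a transmembrane receptor that binds acetylated sugars such as chitin. Ier5l is named for its likeness to the immediate early gene Ier5.

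Of the 10, 9 form a cluster around Lrrc8a (plus strand, 30237715 to 30263790 on GRCm38, the build also called mm10). With upstream distances written as negative, Set (plus strand, 30057378 to 30072577) lay at -165.1 kb, Endog (plus strand, 30171493 to 30174069) at -63.65 kb and Ccbl1 (minus strand, 30185124 to 30205847) at -31.87 kb. On the downstream side, Phyhd1 (plus strand, 30266203 to 30282149) begins only 2.413 kb after the end of Lrrc8a, followed by Dolk (minus strand, 30284231 to 30286334) at 20.44 kb and Nup188 (plus strand, 30286397 to 30344266) at 22.61 kb. Sh3glb2 (minus strand, 30344809 to 30359337) is at 81.02 kb, Dolpp1 at 128.5 kb and Ier5l (minus strand, 30471537 to 30474219) at 207.7 kb. Fibcd1 stands apart, 1550 kb downstream, on the minus strand from 31813290 to 31846005. The list is not the whole neighbourhood: 70 tested genes lay within 2 Mb, namely the 10, Lrrc8a and 59 others. At the edges of that interval, Ppp1r26 and Uck1 were the outermost tested genes inside, with log2 fold changes (MUT minus WT) of 0.02 and 0.04. Olfm1 and Swi5 were the first tested genes outside, 2.01 Mb upstream and 2.02 Mb downstream, at -0.24 and -0.00.

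The promoters of 4 of the genes are shown, those of the 2 genes with the largest differences and of the pair that shares a start region. Each run holds 250 bases before and 50 after the annotated start, from RefSeq on GRCm38.p6, written 5′ to 3′ on the gene's own strand. Capitals mark any match, on either strand, to the TATA box TATAAA, the CCAAT box CCAAT, the GC box GGGCGG or the half-site TGACG of the cyclic AMP response element.
Dolpp1 (plus strand, chr2:30392004-30392303): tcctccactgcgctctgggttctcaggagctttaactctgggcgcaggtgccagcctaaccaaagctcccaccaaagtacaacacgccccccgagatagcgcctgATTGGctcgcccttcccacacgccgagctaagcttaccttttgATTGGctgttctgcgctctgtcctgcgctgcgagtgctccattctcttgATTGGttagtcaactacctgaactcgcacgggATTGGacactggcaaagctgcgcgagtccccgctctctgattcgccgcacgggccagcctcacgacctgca
Fibcd1 (minus strand, chr2:31845956-31846255): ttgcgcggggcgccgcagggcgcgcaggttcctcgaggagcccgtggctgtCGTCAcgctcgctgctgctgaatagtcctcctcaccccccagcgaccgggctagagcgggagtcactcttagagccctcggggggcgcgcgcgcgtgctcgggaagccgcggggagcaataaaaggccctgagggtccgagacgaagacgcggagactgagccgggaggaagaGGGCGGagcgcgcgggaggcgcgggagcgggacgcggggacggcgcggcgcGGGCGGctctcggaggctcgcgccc
Nup188 (plus strand, chr2:30286166-30286465): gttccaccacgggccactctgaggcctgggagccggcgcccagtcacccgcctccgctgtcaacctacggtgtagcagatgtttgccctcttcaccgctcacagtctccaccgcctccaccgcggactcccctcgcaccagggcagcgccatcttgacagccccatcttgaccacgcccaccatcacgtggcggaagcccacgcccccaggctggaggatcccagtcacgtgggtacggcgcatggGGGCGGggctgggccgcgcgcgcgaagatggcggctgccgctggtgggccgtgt
Dolk (minus strand, chr2:30286305-30286604): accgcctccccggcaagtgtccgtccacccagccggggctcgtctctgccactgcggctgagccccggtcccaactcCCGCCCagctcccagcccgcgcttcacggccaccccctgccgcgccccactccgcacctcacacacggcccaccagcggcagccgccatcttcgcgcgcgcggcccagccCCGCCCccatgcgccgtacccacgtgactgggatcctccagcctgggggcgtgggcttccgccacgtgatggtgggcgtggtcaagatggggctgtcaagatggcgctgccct

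The Dolpp1 window held 4 CCAAT boxes, all in the reverse orientation (ATTGG), and none of the other motifs. The Fibcd1 window held 2 GC boxes, 1 half-site and no CCAAT box, and with 46 CpG it had more CpG than 98.4% of the 32851 mouse promoter windows of the same length. The starts of Dolk and Nup188 face away from each other with 62 bases between them, and their windows share 161 bases. All 10 genes had a window, 13 in all because Set and Phyhd1 have several starts. A CCAAT box was found for 5 of the 10 genes, a GC box for 8, a half-site for 2 and a TATA box for 0. The GC box of Nup188 lies in the bases shared with Dolk and is counted for both genes. By window, the counts were 6, 9, 2 and 0 of the 13. Over all mouse windows the shares were 37.4%, 35.7%, 20.8% and 13.6% of windows in the same order. In the window of Ccbl1, a CCAAT match and a half-site match overlapped by 1 base. CpG counts of the windows ran from 0 to 46 against a median of 7 over all mouse windows, and the 3 windows of Phyhd1 held the fewest, at 0, 1 and 2. These matches describe letters and do not show that a factor binds.

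The genes spanned a wide range of levels in testis. Per kilobase of the longest GENCODE transcript and averaged over 4 libraries, Nup188 was the most abundant at 72.2 CPM per kb, above 91.7% of tested genes, and Set followed at 34.4 CPM per kb. Dolpp1 was at 8.55, Ccbl1 at 6.25, Sh3glb2 at 5.59, Dolk at 2.64 and Ier5l at 2.33 CPM per kb. The lowest were Endog at 1.17, Phyhd1 at 0.846 and Fibcd1 at 0.629 CPM per kb. In this order the ranges over the 4 libraries did not overlap between neighbours, with the exception of Fibcd1, whose range of 0.177 to 1.14 CPM per kb took in that of Phyhd1 (0.769 to 0.946) and met that of Endog (0.988 to 1.34).

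Fibcd1 showed the largest difference of the 10. It was measured at 0.8406 CPM in MUT 1 and 0.9529 CPM in MUT 2, and at 5.399 CPM in WT 1 and 4.765 CPM in WT 2. Both MUT libraries were far below both WT libraries. The MUT mean of 0.8967 ± 0.0794 CPM (SD, n = 2) was 17.6% of the WT mean of 5.082 ± 0.448 CPM. The difference rested on few reads in MUT, 41 and 39 against 364 and 237 in WT. The exact Poisson 95% intervals, which cover counting error only, were 0.603 to 1.14 and 0.678 to 1.3 CPM in the MUT libraries and 4.86 to 5.98 and 4.18 to 5.41 CPM in the WT libraries. The log2 fold change was -2.00 (SE 0.153) on the log2(CPM + 0.5) scale, which understates the change of weakly expressed genes, and -2.51 when edgeR or DESeq2 was run on the recovered reads. In a bulk tissue, fewer cells of a type and less RNA per cell cannot be told apart.

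Dolpp1 was the other gene with a large difference. Its levels were 14.95 and 16.86 CPM in MUT 1 and MUT 2, and 23.23 and 23.38 CPM in WT 1 and WT 2. The WT libraries lay close together and both MUT libraries were below them, with means of 15.9 ± 1.35 and 23.31 ± 0.11 CPM (SD, n = 2). The MUT mean was 68.2% of the WT mean, a log2 fold change of -0.54 (SE 0.0923). Dolpp1 (plus strand, 30392254 to 30400529) runs toward Crat, the carnitine acetyltransferase gene on the minus strand, and the 3′ ends overlap by 59 bases, all exonic and 1.82% of the Dolpp1 exon bases. Crat was measured at 1083 and 1151 CPM in the MUT libraries and 2123 and 2046 CPM in the WT libraries. Dolpp1 came to 1.38% and 1.46% of the Crat level in MUT and to 1.09% and 1.14% in WT, so the level of Crat was proportionally lower still in MUT. The sources used here do not give the strand setting of the counting, and whether reads of Crat entered the Dolpp1 value was not tested.

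Dolk, the other dolichol gene of the cluster, was not lower in MUT. It was at 5.638 and 5.791 CPM (MUT) and 5.488 and 5.288 CPM (WT), with both MUT libraries slightly above both WT libraries. The log2 fold change was 0.08 (SE 0.119), a difference smaller than its standard error. Nup188, which starts 62 bases from Dolk on the opposite strand, was at 383.6 and 416.6 CPM (MUT) and 427.5 and 420.6 CPM (WT). Its MUT libraries were below the WT libraries, but MUT 2 was nearer to WT 2 than to MUT 1. The log2 fold change of Nup188 was -0.08 (SE 0.0619). The pair with the shared start region thus had small values of opposite sign.

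Endog had the next lowest ratio after Fibcd1 and Dolpp1. It was at 1.087 and 1.051 CPM (MUT) and 1.424 and 1.407 CPM (WT), so that both MUT libraries were below both WT libraries. The MUT mean was 75.5% of the WT mean, with a log2 fold change of -0.29 (SE 0.172). These levels came from 53 and 43 reads in MUT and 96 and 70 reads in WT. The Poisson 95% intervals of the libraries overlapped, at 0.814 to 1.42 CPM in MUT 1 and 1.15 to 1.74 CPM in WT 1. With the trend of the fold changes on GC content and transcript length removed, the value was -0.14. Endog overlaps the gene D2Wsu81e, now named Spout1, on the opposite strand over 379 exonic bases, 35.7% of its own exons, and D2Wsu81e was at 174.6 CPM (MUT) and 188.5 CPM (WT). Whether reads of D2Wsu81e entered the Endog value was not tested.

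The remaining 5 genes differed little. Phyhd1, the nearest downstream neighbour of Lrrc8a, was at 1.415 and 1.588 CPM (MUT) and 1.29 and 1.387 CPM (WT), a log2 fold change of 0.12 (SE 0.169) from 65 to 87 reads per library. Its MUT libraries were above the WT libraries, while the Poisson intervals of MUT 1 (1.1 to 1.79 CPM) and WT 1 (1.03 to 1.59 CPM) overlapped. Ccbl1, the nearest listed gene upstream, was at 12.57 and 13.22 CPM (MUT) and 13.23 and 12.4 CPM (WT), and the genotypes overlapped. Its log2 fold change of 0.01 (SE 0.0983) was the smallest of the 10.

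Set was at 103.2 and 94.33 CPM (MUT) and 96.87 and 95.66 CPM (WT), with the WT libraries lying between the MUT libraries. Its log2 fold change was 0.04 (SE 0.07). Sh3glb2 was at 9.984 and 10.19 CPM (MUT) and 10.68 and 10.54 CPM (WT), and both MUT libraries were slightly lower (log2 fold change -0.07, SE 0.102). Ier5l was at 6.356 and 5.962 CPM (MUT) and 6.126 and 6.615 CPM (WT), with overlapping genotypes (-0.04, SE 0.117). With the same trend removed, the value of Sh3glb2 was 0.03 and that of Ier5l 0.09, so neither gene had a stable sign.

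**Figure D1:**
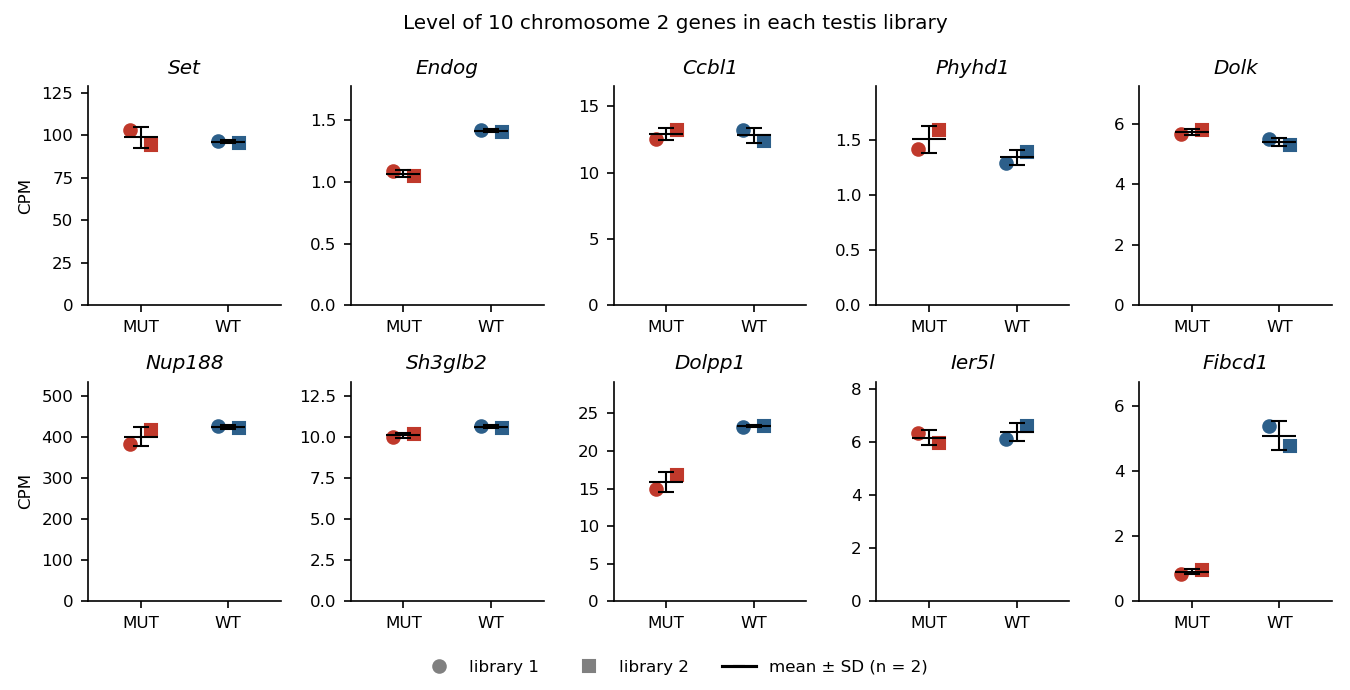
Level of each of the 10 genes in CPM (vertical axes from 0, scaled per gene) in the MUT and WT testis libraries, with 1 point per library and black bars for the mean ± SD (n = 2). Fibcd1 (0.8967 against 5.082 CPM) and Dolpp1 (15.9 against 23.31 CPM) are clearly lower in MUT, Endog is lower at a very low level, and the other genes lie close together.

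Taken as a list, 5 of the 10 genes had both MUT libraries below both WT libraries (Endog, Nup188, Sh3glb2, Dolpp1 and Fibcd1), 2 had both above (Phyhd1 and Dolk) and 3 overlapped. Among all 15364 tested genes, 22.6% lay fully below, 23% fully above and 45.6% did not overlap in either direction. The median log2 fold change of the 10 was -0.0571, against -0.00159 over all tested genes. Without Fibcd1 and Dolpp1, the median of the other 8 was -0.0182, with 4 values above 0 and 4 below. Of the 10, 2 were among the genes called at an adjusted p under 0.05 in the limma fit over all genes (Fibcd1 and Dolpp1, both lower), where 0.749% of all tested genes were called, 0.267% lower and 0.482% higher. Because the list was put together with this same contrast known, nothing is read from that count.

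**Figure D2:**
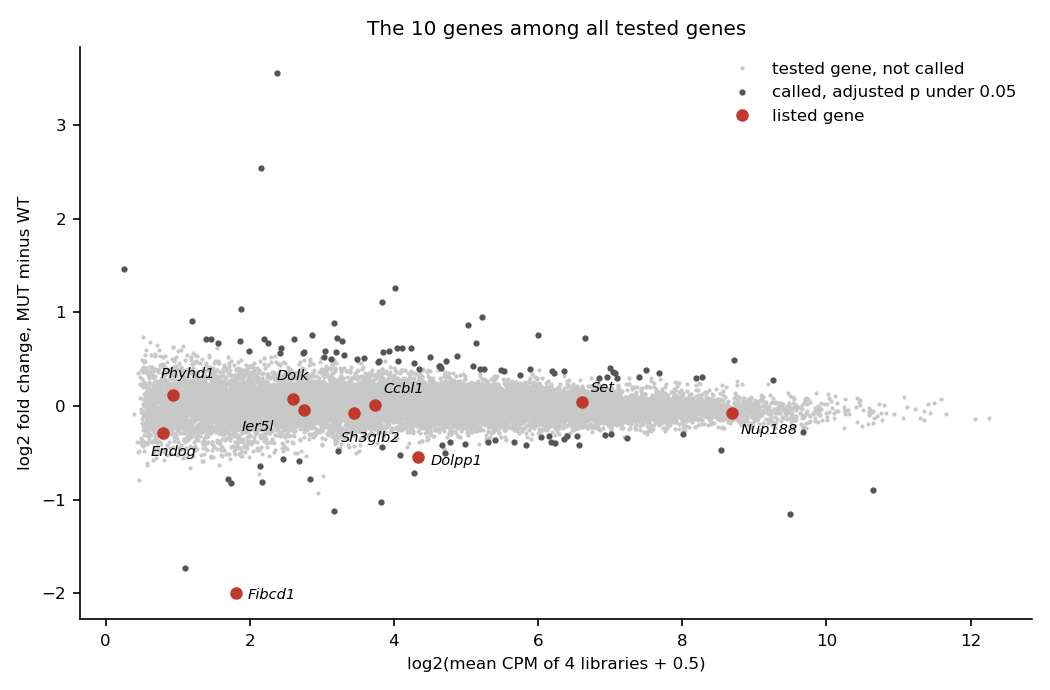
Log2 fold change (MUT minus WT, on the log2(CPM + 0.5) scale) against the log2 of the mean CPM of 4 libraries + 0.5 for the 15364 tested genes, with the genes called at an adjusted p under 0.05 in dark grey and the 10 listed genes in red. Fibcd1 lies at the lowest value of all tested genes (-2.00), Dolpp1 (-0.54) lies at the lower edge of the cloud, and the other 8 (-0.29 to 0.12) lie within it.

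Lrrc8a itself, between Ccbl1 and Phyhd1, was at 13.49 and 15.86 CPM (MUT) and 18.21 and 17.15 CPM (WT). Both MUT libraries were below both WT libraries, but Lrrc8a, at a log2 fold change of -0.26 (SE 0.0998), was not called (limma adjusted p = 0.218). Over the alternatives that kept all 4 libraries, the adjusted p ran from 0.131 to 0.364. GENCODE also holds a readthrough model, Gm28035, that covers 66.2% of the Lrrc8a exon bases and 47% of those of Phyhd1. A second model, Gm28038, joins exons of Phyhd1 and Nup188 (3.54% and 4.55% of their exon bases) and spans Dolk without sharing an exon with it. Nup188 also overlaps Gm14471, a transcript of the opposite strand, over 7.88% of its exon bases. Gm28035, Gm28038 and Gm14471 are not among the symbols of the deposited table. The sources used here do not give the gene models used for counting or say how reads in shared exons were assigned. The antisense gene 1700084E18Rik overlaps the start of Lrrc8a over 91 exonic bases and was at 5.568 CPM (MUT) and 5.01 CPM (WT).

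The 59 other tested genes within 2 Mb show what surrounds the 10. Of these 59, 1 was called (Crat, lower), beside 0.749% of all tested genes. The mean of Crat was 1117 ± 47.6 CPM (MUT) and 2084 ± 55.1 CPM (WT) (SD, n = 2). Its log2 fold change was -0.90 with an SE of 0.058 (limma adjusted p = 2.25e-08, and 7.21e-40 to 0.035 over the alternatives). The other 58 were not called. Fibcd1 and Dolpp1, called lower in the same window, are not among the 59, having been listed with this contrast known. Of the 59, 30 had positive values and 29 negative ones, and their median was 0.000396, next to -0.00159 over all tested genes. Both MUT libraries were below both WT libraries for 19 (32.2%, against 22.6% of all tested genes) and above for 13 (22%, against 23%). The largest values after Crat were those of D330023K18Rik, a noncoding transcript at 1.739 CPM (MUT) and 1.104 CPM (WT) (0.48, SE 0.168, adjusted p = 0.183), and Ncs1, which encodes the neuronal calcium sensor NCS-1, at 30.95 ± 6.81 CPM (MUT) and 40.8 ± 1.32 CPM (WT) (-0.41, SE 0.107, adjusted p = 0.0813). Ncs1 differed between its MUT libraries, at 26.14 and 35.77 CPM. Besides Crat, Ncs1 was called without MUT 2, and 1700001O22Rik without WT 1. Those fits have no replication in the genotype of the library left out.

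Of the 10, the 3 nearest to it, Phyhd1, Dolk and Nup188, had log2 fold changes of 0.12, 0.08 and -0.08, whereas Dolpp1 at 128.5 kb had -0.54 and Fibcd1 at 1550 kb had -2.00. Abl1, which ends between Lrrc8a and Fibcd1, and Lamc3, which starts beyond Fibcd1, had values of -0.18 and -0.06. Around Dolpp1, the gene on the near side (Fam73b, now Miga2) had a value of -0.01 and the genes on the far side (Crat and Ppp2r4, now Ptpa) had values of -0.90 and -0.25. Ppp2r4 was not called (limma adjusted p = 0.0776). Between Set and Ier5l, an interval picked after the values were seen, 9 other genes were tested, with 3 values above 0, 6 below and a median of -0.0459. Both MUT libraries lay below both WT libraries for 55.6% of these 9, for 39.4% of the 33 other genes within 1 Mb, for 32.2% of the 59 within 2 Mb and for 29.2% of the 171 within 5 Mb, against 22.6% of all tested genes. Both lay above for 22.2%, 24.2%, 22% and 16.4% in that order, against 23% of all tested genes. In the same order, 44.4%, 27.3%, 20.3% and 16.4% had an unadjusted limma p under 0.05, against 14.7% of all tested genes. The medians within 1, 2 and 5 Mb were 0.000396, 0.000396 and -0.00868. All these intervals are nested, so they share genes, Crat among them, and the trend over them was not tested.

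**Figure D3:**
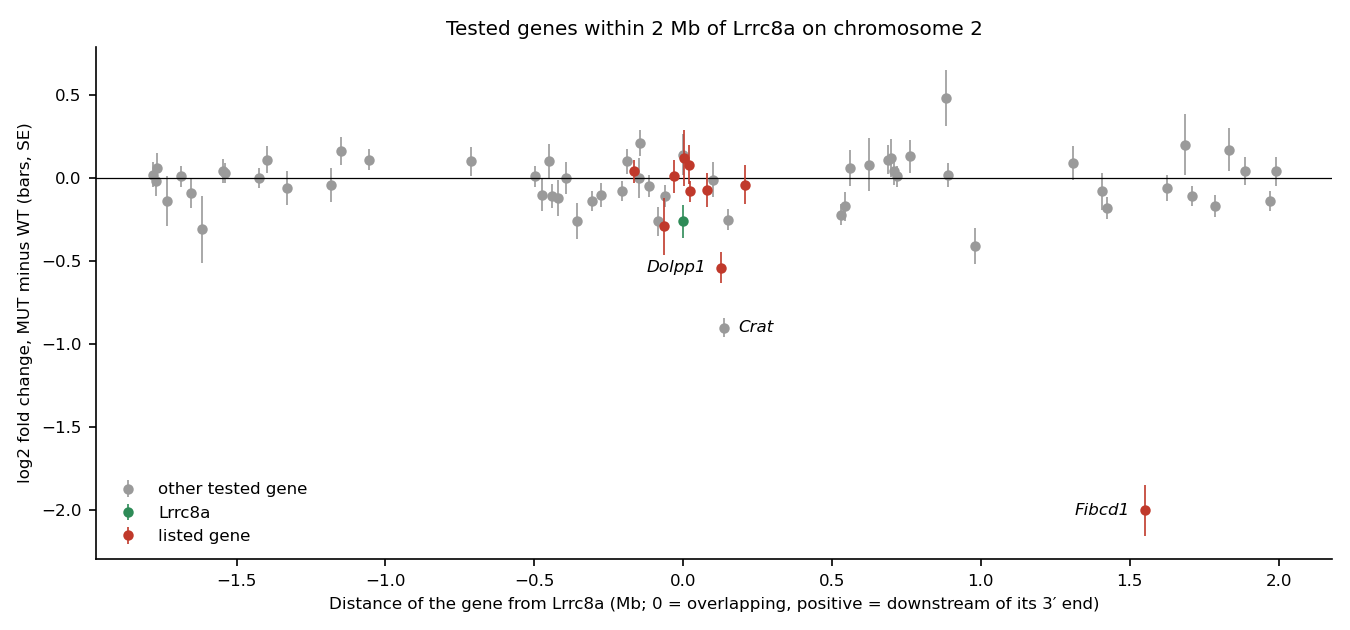
Log2 fold change (MUT minus WT, bars for the SE) of the 70 tested genes within 2 Mb of Lrrc8a against the distance of each gene from Lrrc8a in Mb, with the 10 listed genes in red, Lrrc8a in green and the 59 others in grey. Most values lie near 0 on both sides, and Dolpp1 (-0.54), Crat (-0.90) and Fibcd1 (-2.00) stand below them on the downstream side.

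The partners of the 10 genes elsewhere in the genome were read from the same fit. The partner lists were chosen with earlier results of these data known, so calls and p-values within them are a description. Over 9 lists of partners and relatives, 107 of 135 genes were tested, 1 was called higher, 1 lower and 105 were not called, beside 0.482% and 0.267% of all tested genes. In the dolichol and oligosaccharide assembly list, 1 of 23 tested genes was called. This was Alg10b, an endoplasmic reticulum glucosyltransferase gene of that pathway, at 11.34 and 9.578 CPM (MUT) and 6.23 and 7.439 CPM (WT) (log2 fold change 0.58, SE 0.12, limma adjusted p = 0.028). The call was lost without the filter on low values (limma adjusted p = 0.239), without the variance trend (0.192) and after quantile normalization (0.0685). It was also lost with the GC and length trend removed (0.0656), and with the replicate block added to that (0.155). Without MUT 1 or without WT 1, where that genotype has no replication, the log2 fold change was 0.46. The dehydrodolichyl diphosphate synthase genes Dhdds (23.05 CPM in MUT, 22.64 CPM in WT) and Nus1 (32.45 and 31.05 CPM) and the polyprenol reductase gene Srd5a3 (2.739 and 2.949 CPM), which make dolichol, were not called. Over the 23 genes the median was 0.0599, with 15 values above 0 and 8 below.

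In the nuclear pore list, 0 of 28 tested genes were called, 3 had an unadjusted limma p under 0.05, and the values ran from -0.12 to 0.22. Nup205 and Nup93, which share a subcomplex with Nup188, were at 485.7 and 40.44 CPM (MUT) and 490.7 and 39.06 CPM (WT). The most abundant was Nup98, at 520.3 CPM (MUT) and 522.7 CPM (WT). Nup214 and Gle1 of this list also lie within 2 Mb of Lrrc8a and had log2 fold changes of -0.11 and -0.10.

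Among the fibrinogen-domain genes, relatives of Fibcd1, 7 of 19 were expressed enough to be tested and 1 was called. Angptl7, for a secreted protein of the angiopoietin-like family, was at 0.451 and 0.4154 CPM (MUT) and 4.227 and 1.528 CPM (WT) (log2 fold change -1.73, SE 0.265, limma adjusted p = 0.00271). Angptl7 was under 1 CPM in both MUT libraries and so passed the filter only through WT, which builds a difference into its being tested. Its WT libraries differed widely, and the log2 fold change was -1.12 without WT 1 and -2.76 with edgeR on the recovered reads. The call was lost without the filter on low values (limma adjusted p = 0.146), without the variance trend (0.187) and with robust variances (0.0553). In 2 more alternatives, a filter of 5 CPM and DESeq2, the gene had no adjusted p. Fgl2 was the most abundant of the list, at 26.39 CPM (MUT) and 23.09 CPM (WT), and was not called.

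In the other 6 lists no gene was called. The kynurenine list had 5 tested genes, with Got1 at 14.56 CPM (MUT) and 13.76 CPM (WT) and Ccbl2, the paralog of Ccbl1, at 6.269 and 4.959 CPM (log2 fold change 0.31, limma adjusted p = 0.233). The endophilin list had 8, led by Sh3glb1 at 823.9 and 920.1 CPM (-0.16, adjusted p = 0.213). The phytanoyl-CoA list had 7, led by Phyhipl at 343.4 and 336.5 CPM, and the immediate early response list 3, led by Ier3ip1 at 32.96 and 31.85 CPM. Of 13 tested genes in the list around Set, Hmgb2 was the most abundant, at 124.5 and 102.4 CPM (0.28, adjusted p = 0.0624). Of 13 in the list around Endog, Diablo was, at 338.8 and 354.8 CPM. In these 6 lists, 1, 2, 1, 0, 1 and 1 genes had an unadjusted limma p under 0.05 in the order given. The dolichol list had 5 of 23 such genes (21.7%) and the fibrinogen-domain list 3 of 7 (42.9%). Among all tested genes the share was 14.7%.

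**Figure D4:**
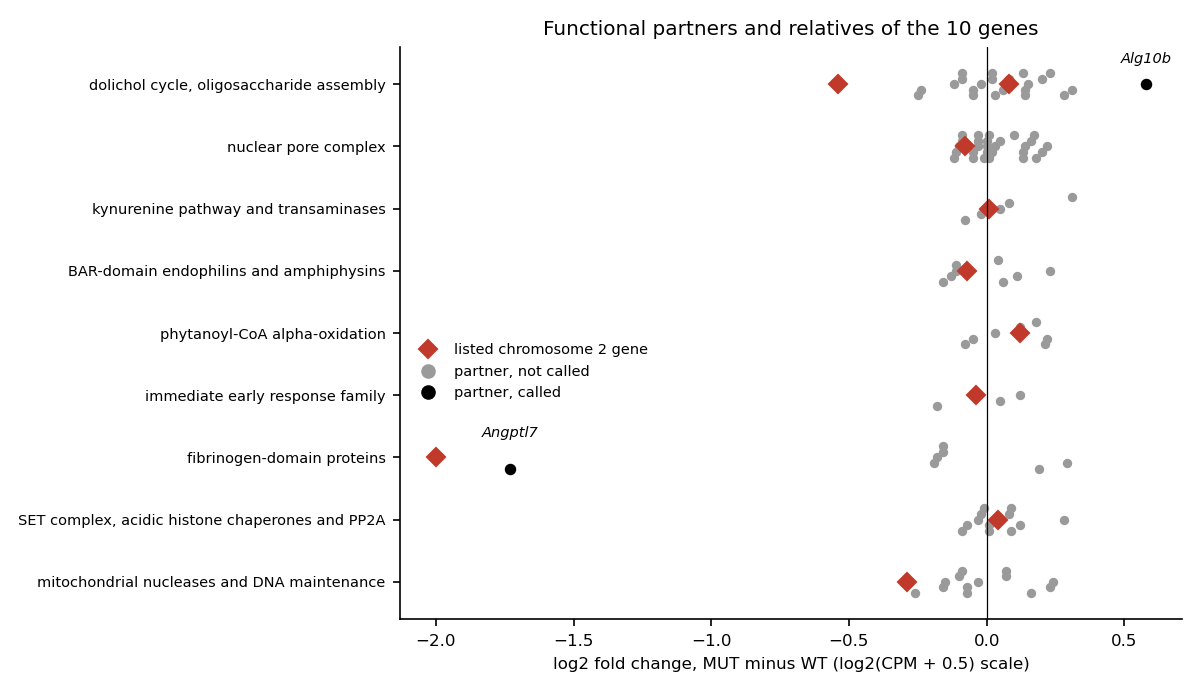
Log2 fold change (MUT minus WT) of the tested partner genes in 9 lists (rows), with partners in grey, called partners in black and the listed chromosome 2 genes as red diamonds in the row of their list. Partners lie near 0 apart from Alg10b (0.58) and Angptl7 (-1.73), while Dolpp1 (-0.54) and Fibcd1 (-2.00) lie left of all tested partners in their rows.

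The genes elsewhere whose pattern over the 4 libraries was closest to the 2 most different genes were found by Euclidean distance between log2 profiles centred on their means. For Fibcd1 they were Angptl7 (distance 0.803 log2 units), Lars2 (0.864) and Klrb1 (0.969), none of them a close match. For Dolpp1 they were Mfap5 (0.038), St8sia5 (0.0526) and Hoxc9 (0.0553). Mfap5 was at 3.711 and 4.154 CPM (MUT) and 6.037 and 6.132 CPM (WT). With 4 libraries, many genes can take a like shape.

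The labels name germ cells as the cell type and testis as the source, and markers of both germ and somatic cells were present. Elongating spermatid markers summed to 13000 to 13733 CPM (MUT) and 13179 to 14694 CPM (WT), led by Prm2, the protamine gene, and none of 6 was called. Leydig markers summed to 1144 and 1193 CPM (MUT) and 993.2 and 973.9 CPM (WT), with 1 of 8 called (Cyp17a1, higher). Sertoli markers summed to 906.7 and 940.2 CPM (MUT) and 879.2 and 834.5 CPM (WT), and peritubular myoid markers to 369.3 and 389.7 CPM (MUT) and 419.8 and 406.3 CPM (WT), with none called in either list. Macrophage markers summed to 69.17 to 70.1 CPM (MUT) and 65.48 to 65.69 CPM (WT) (1 of 6 called, Cd74, lower), and endothelial markers to 42.83 to 43.34 and 44.88 to 44.96 CPM (0 of 5 called). Epididymal markers came to 5.105 and 5.473 CPM (MUT) and 4.316 and 3.599 CPM (WT), with Spint4 at 0 in all libraries. Spermatogonial, spermatocyte and round spermatid sums overlapped between the genotypes, with 1 of 6 (Kit, higher), 0 of 6 and 0 of 6 called. Of all tested genes, 0.482% were called higher and 0.267% lower. Some sums came largely from a single gene. Averaged over all libraries, Cyp17a1 stood at 610.7 CPM (Leydig) and Clu at 720.3 CPM (Sertoli). Actg2 stood at 289.6 CPM (peritubular myoid) and Rnase10 at 4.395 CPM (epididymal). Only 1 of 5 epididymal markers passed the filter. The part of these shifts in marker sums in the levels of Fibcd1 and Dolpp1 was not tested.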

How the data were processed

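Polyadenylated RNA of testis was sequenced with a stranded kit, per the labels' protocols, in 2 MUT and 2 WT libraries. The authors deposited 1 table of CPM, and the submitters' processing notes name TopHat2 2.0.10, HTSeq 0.6.0, edgeR 3.8.6 and mm10 without their roles. The CPM summed to 992486.9 and 987722.6 in MUT and to 1011463.1 and 1008533.2 in WT, so they were not scaled to the plain total of reads. All values (100%) lay within 0.001 of whole multiples of the smallest value in their library, which gave back whole reads for count-based alternatives.

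A level of 1 CPM or more in 2 or more libraries was required (15364 symbols), and limma was run on log2(CPM + 0.5), using version 3.58.1 in R 4.3.3 (eBayes with a mean-variance trend, two-sided, Benjamini-Hochberg adjustment over all tested genes, called at an adjusted p under 0.05). With 2 libraries per genotype the smallest p of an exact permutation test is 0.3333, so the p-values of single genes come only from limma, whose variances borrow from all tested genes. The steps were tested on simulated reads with known changes. There, 22% of genes changed 1.2-fold and 86% of those changed 1.5-fold were called, and 9 of 159 calls were false. The simulated reads took a variability set by expression level alone, without differences between genes of like level. These shares may therefore not hold for the real libraries. A gene that was not called may still differ, and at low levels not only by a small amount. D330023K18Rik, at 1.739 CPM (MUT) and 1.104 CPM (WT), was not called. Positions came from GENCODE vM21 (GRCm38), with RefSeq symbols or synonyms for names that GENCODE lacked, and promoters from RefSeq on GRCm38.p6. Protein sequences were not used here.

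The 10 genes, the 9 partner lists and the marker lists were chosen with earlier results of these data known. The rule for names took the 10, Lrrc8a, genes overlapping them, called genes or the 3 largest values within 2 Mb, called and most abundant partners, and the 3 closest patterns for 2 of the 10; other genes are named for position or role. One gene that this rule takes is not reported here. Alternatives changed the pseudocount, filter, scaling, variance model, replicate block, GC content and length trend, window and libraries, and ran edgeR 4.0.16 and DESeq2 1.42.0 on the recovered reads. Fits without a library have no replication in that genotype. Their calls rest on the spread of the other genotype and on variances borrowed from all tested genes.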

Additional observations from a re-analysis of the deposited data

How the results depend on the processing

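As a description of genes listed with this contrast known, the log2 fold change of Fibcd1 ran from -2.51 to -1.68 over the alternatives and that of Dolpp1 from -0.62 to -0.46. Dolpp1 was not among the called genes without the filter on low values, without the variance trend, or with the replicate block and GC correction together. Endog ran from -0.41 to -0.14, Sh3glb2 from -0.09 to 0.03, Ier5l from -0.10 to 0.09 and Set from -0.03 to 0.10. Lrrc8a was not called in any of 18 alternatives (-0.38 to -0.15).

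Against 74 genes called higher and 41 lower in all, the counts were 7 and 4 without the filter, 5 and 2 without the variance trend, 35 and 18 after quantile normalization, 122 and 34 with reads scaled to their plain total (78.2% higher against 64.3%, with the median of all genes at 0.0258), 42 and 34 with the GC content and length trend removed, and 94 and 72 with DESeq2 (56.6% higher). Leaving out 1 library gave 71 to 115 higher and 43 to 165 lower, the most without WT 1. The replicate numbers do not pair the libraries by any label. The deviations of same-numbered libraries correlated at -0.1337, and the replicate block gave 57 and 31 calls, or 14 and 9 with the GC correction. Crossing the numbers, added after seeing the data, gave 131 and 104.

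Among the 59 other genes within 2 Mb, 1 was called lower. This became 2 with DESeq2 (Crat and Ppp2r4), 2 in a window of 5 Mb (Crat and Ptgds), 1 to 2 when a library was left out, and 3 with crossed numbers (Crat, Ppp2r4 and Ncs1). With the replicate block it was 1. Their median of 0.000396 moved to 0.0264 with the plain total, and lay between -0.028 and 0.00308 when a library was left out (-0.028 without WT 2). In the partner lists, the 1 higher call (Alg10b) became 0 without the filter, after quantile normalization, without the trend and after GC correction with or without the block, 2 with the plain total, DESeq2 and crossed numbers (Alg10b and Hmgb2), and 0 to 1 when a library was left out (0 without MUT 1, and Hmgb2 in place of Alg10b without WT 1). The 1 lower call (Angptl7) became 0 without the filter, without the trend and with robust variances, 0 with a filter of 5 CPM and with DESeq2, where Angptl7 was not given an adjusted p, and 1 to 2 when a library was left out (Angptl7 and Fdps without WT 1). The cause of these shifts was not tested. Depth limits Fibcd1 in MUT, Endog and Phyhd1 the most, with 39 to 96 reads in those libraries.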
